A study of Mus musculus with 6 samples.

Results

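Mitochondrial ribosomal protein genes, the nuclear genes whose symbols start with Mrps or Mrpl and a number, were compared between lipid-droplet-rich and lipid-droplet-low microglia. The deposited table held 77 such genes among 15912, of which 29 were Mrps genes (small subunit by name) and 48 Mrpl genes (large subunit by name). The members were chosen by symbol alone, and all 77 met the filter that left 12767 genes for testing. The microglia came from the hippocampus of male C57BL/6 mice aged 3 months that had received lipopolysaccharide (LPS, a bacterial cell wall component) at 1 mg/kg into the peritoneum for 4 days, and they were collected 24 h after the last dose. Live CD11b+ CD45lo cells were parted by BODIPY, a dye of neutral lipids, into a BODIPY-high gate (lipid-droplet rich, 3 libraries) and a BODIPY-low gate (lipid-droplet low, 3 libraries). Each sample pooled the hippocampi of 2 animals. Both gates came from LPS-treated animals, and no library of mice given PBS was analysed here.

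Mitochondria translate a small set of their own messages, all for subunits of the oxidative phosphorylation machinery, on ribosomes of their own. The ribosomal RNAs are encoded in the mitochondrial genome, whereas every protein of these ribosomes is encoded in the nucleus, made in the cytosol and imported. Many of the proteins belong to families also found in bacterial ribosomes, and others occur only in mitochondria. A few names mislead: Mrps18a and Mrps30 sit in the large subunit, and Mrps36 is now known as a subunit of the alpha-ketoglutarate dehydrogenase complex and not of the ribosome.

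The promoters of the 4 members of lowest p in the comparison are printed first. None of these 4 genes was called (limma adjusted p from 0.352 to 0.539). RefSeq promoter windows (build GRCm38.p6, 250 bases before to 50 bases after the annotated start) were found for 68 of the 77 members. The capitals mark matches, on either strand, to motifs known for regulators of nuclear mitochondrial genes: GCGCA, any base and then GCGC for NRF1, CCGGAAG for the ETS family with GABPA, and AAGATGG for YY1. The windows are chr19:45006393-45006692 for Mrpl43, chr11:59202236-59202535 for Mrpl55, chr13:14612988-14613287 for Mrpl32 and chr7:105811038-105811337 for Mrpl17, with Mrpl55 on the plus strand and the others on the minus strand.
Mrpl43: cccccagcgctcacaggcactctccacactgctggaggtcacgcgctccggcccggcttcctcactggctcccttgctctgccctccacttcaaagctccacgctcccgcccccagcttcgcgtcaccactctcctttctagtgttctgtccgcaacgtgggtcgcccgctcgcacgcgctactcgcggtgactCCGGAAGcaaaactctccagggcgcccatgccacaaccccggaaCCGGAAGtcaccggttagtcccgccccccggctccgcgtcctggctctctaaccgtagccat
Mrpl55: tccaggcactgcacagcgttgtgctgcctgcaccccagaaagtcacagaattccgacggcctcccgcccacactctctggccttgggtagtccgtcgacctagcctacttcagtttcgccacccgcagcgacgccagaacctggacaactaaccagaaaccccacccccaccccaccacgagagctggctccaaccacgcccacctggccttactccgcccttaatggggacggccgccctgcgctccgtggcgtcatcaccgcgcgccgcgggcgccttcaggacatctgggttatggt
Mrpl32: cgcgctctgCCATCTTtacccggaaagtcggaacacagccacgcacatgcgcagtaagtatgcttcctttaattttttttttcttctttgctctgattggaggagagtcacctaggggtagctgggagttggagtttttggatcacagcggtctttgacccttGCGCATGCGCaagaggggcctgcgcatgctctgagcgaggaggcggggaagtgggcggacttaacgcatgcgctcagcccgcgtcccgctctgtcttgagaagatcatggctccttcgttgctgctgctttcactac
Mrpl17: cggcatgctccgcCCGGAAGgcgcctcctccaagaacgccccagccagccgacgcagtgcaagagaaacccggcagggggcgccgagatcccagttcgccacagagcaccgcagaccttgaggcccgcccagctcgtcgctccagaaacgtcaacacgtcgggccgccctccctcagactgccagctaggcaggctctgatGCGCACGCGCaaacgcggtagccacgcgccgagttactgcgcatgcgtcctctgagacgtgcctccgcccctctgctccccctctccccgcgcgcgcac
Mrpl43 held 2 ETS matches, whose first bases lay at -56 and -12 from the start. Mrpl32 held an NRF1 match at -87 that reads the same on both strands, and a YY1 match on the opposite strand at -241. Mrpl17 held an NRF1 match at -49 and an ETS match at -237. None of the 3 motifs was in the Mrpl55 window.

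Across members, the ETS letters stood in 33.8% of 74 windows, against 17.1% of 12352 windows of other genes tested. The NRF1 letters stood in 17.6% of member windows and in 9.78% of the others, and the YY1 letters in 17.6% and 6.92%. The share of all 32851 windows in the reference with each motif was 8.86% for ETS, 4.60% for NRF1 and 6.34% for YY1. The median GC content of the windows was 58.5% for members and 60.7% for other genes tested. A match describes letters and is no evidence of binding. The 13 members with an NRF1 match had a median log2 change of -0.15 between gates, against -0.09 for the 55 without one. With an ETS match the median was -0.11 (25 genes) against -0.09 (43 genes) without, and with a YY1 match -0.04 (13 genes) against -0.11 (55 genes).

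Recovered reads per library ran from 37633089 to 39220494 in the BODIPY-high gate and from 34899413 to 36518323 in the BODIPY-low gate. BODIPY-high libraries held reads of 14590 to 15088 genes, against 14031 to 14193 in BODIPY-low libraries. All 11 microglia markers checked, among them Tmem119, P2ry12 and Cx3cr1, were present in every library, with a summed normalized count of 1563912 to 2134291 in BODIPY-high libraries and 1960109 to 2315273 in BODIPY-low libraries. All 11 had log2 changes below 0 (median -0.22), with 0 called by limma or edgeR, 1 by DESeq2, and 1 lower and 0 higher at an unadjusted p under 0.05. Markers of other cells also differed between gates. Choroid plexus markers summed to 38968 to 50856 normalized counts in BODIPY-high libraries against 303 to 2227 in BODIPY-low libraries, with 7 of 7 called higher, and Folr1 and Aqp1 were at 0 in at least 1 library. Border-associated macrophage markers summed to 23608 to 89535 against 2641 to 7742, with 10 of 12 called higher and none at 0 in any library. Of the other marker lists, 4 of 8 astrocyte, 2 of 7 oligodendrocyte and 1 of 7 monocyte genes were called higher, and none of 3 neuron, 8 endothelial or 9 neutrophil genes. At an unadjusted p under 0.05 those last 3 lists held 1, 0 and 3 higher and no lower genes, and of these 20 genes edgeR called none and DESeq2 called 1 neutrophil gene. With library numbers as a block, limma called 12 of 12 border-associated macrophage, 7 of 7 choroid plexus, 6 astrocyte, 3 oligodendrocyte, 2 monocyte and 2 neutrophil genes higher (the last being Retnlg and Mmp9, adjusted p = 0.0250 and 0.00626), no neuron or endothelial gene, and the microglia marker Olfml3 lower (adjusted p = 0.0111). The part of these cells in the values of Mrp genes, and of the other mitochondrial genes described further on, was not tested. In bulk libraries, fewer cells of a type and less RNA per cell cannot be told apart.

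Mitochondrial ribosomal protein genes did not change past the test in either direction. Of 77 tested, 0 were called higher and 0 lower in the BODIPY-high gate (limma, adjusted p under 0.05). The share called among all genes tested was 2.05% in either direction, made up of 2.03% higher and 0.0235% lower. The differences were small and mostly negative: the log2 change was below 0 for 60 members, or 77.9%, against 50.8% of all genes tested. The median log2 change was -0.11 for the members and -0.0043 for all genes tested. At an unadjusted p under 0.05, 3 members were lower (3.90%) and 0 higher, against 2.27% lower and 8.03% higher of all genes tested. On recovered reads, edgeR also called 0 members, against 1.75% of all genes tested (1.74% higher and 0.00783% lower). DESeq2 called 0 members as well, against 3.89% (3.63% higher and 0.251% lower). With libraries of the same number as a block, limma again called 0 members, against 4.83% of all genes tested (4.37% higher and 0.462% lower). At an unadjusted p under 0.05 the block gave 5 of 77 members lower and 0 higher, against 6.28% lower and 11.6% higher of all genes tested. With the same block edgeR called 0 members, against 4.3% (3.91% higher and 0.392% lower), and DESeq2 0, against 6.63% (5.43% higher and 1.2% lower). The lowest adjusted p of a member was 0.352 (Mrpl43), and 0.0844 with the block.

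The precision of the libraries bounds these differences. The standard error of the log2 change ran from 0.10 to 0.33 over members, with a median of 0.17, against a median of 0.18 over all genes tested. The 95% interval of the log2 change lay within a 2-fold change either way for 77 of 77 members, and within a 1.5-fold change either way for 49. For 60 of 77 members the change was smaller than the larger of the SDs within the 2 gates. These errors, intervals and SDs do not use the library numbers. With library numbers as a block, the standard error ran from 0.094 (Mrps2) to 0.22 (Mrps36). That of Mrpl52, the largest without the block, was 0.18 in place of 0.33. That of Mrps30, the smallest without the block, was 0.097 in place of 0.101. The members were well covered: the lowest held 133 reads in any library, and means over the 6 libraries ran from 205 to 1989 normalized counts.

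**Figure D1:**
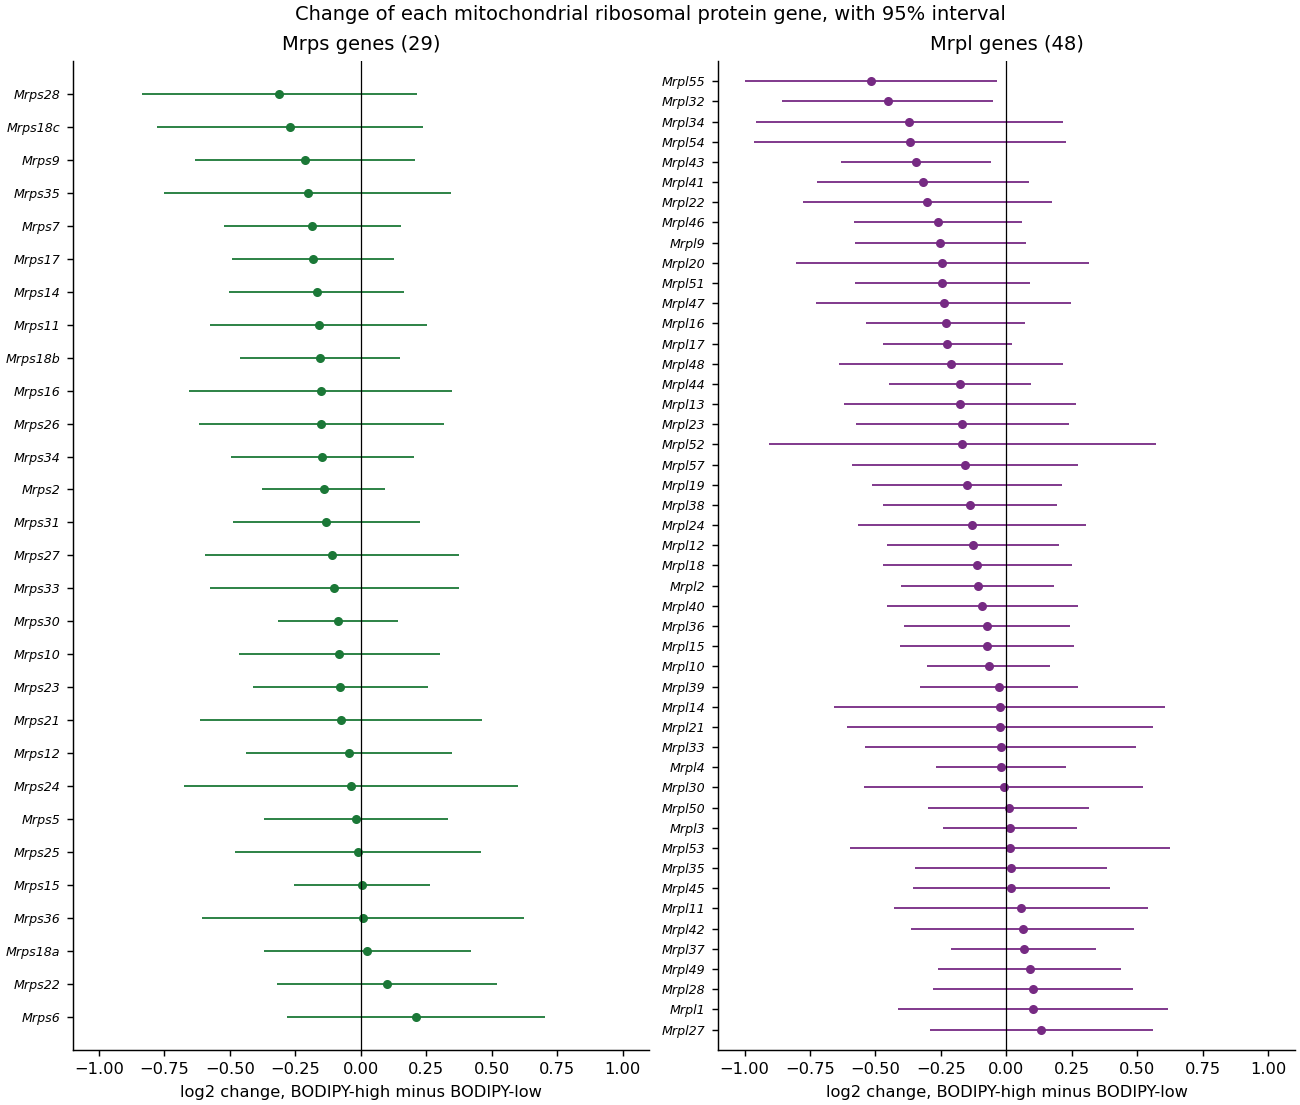
Log2 change of each gene (BODIPY-high minus BODIPY-low, x axis, points) with its 95% interval from limma (lines), for 29 Mrps genes on the left and 48 Mrpl genes on the right, sorted by change. Most points lie left of 0, from -0.52 for Mrpl55 to 0.21 for Mrps6, and the intervals of 3 Mrpl genes (Mrpl55, Mrpl32 and Mrpl43) lie wholly below 0.

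Small-subunit and large-subunit genes gave medians of similar size. The 29 Mrps genes had a median log2 change of -0.11 (range -0.31 to 0.21), with 24 below 0. The 48 Mrpl genes had a median of -0.12 (range -0.52 to 0.13), with 36 below 0. Summed over Mrps genes, BODIPY-high libraries held 17284 ± 1275 normalized counts and BODIPY-low libraries 18702 ± 1461 (SD, n = 3 each), a ratio of 0.924. Summed over Mrpl genes, the values were 32957 ± 2229 and 35712 ± 2390, a ratio of 0.923. The gates overlapped in both sums. When genes were placed by position in the ribosome instead of by name, the median was -0.14 for 26 small-subunit genes and -0.11 for 50 large-subunit genes.

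Within the subunits by gene name, families shared with bacteria and proteins found only in mitochondria overlapped in their changes. Among Mrps genes the median was -0.15 for 18 bacterial-family genes, Mrps18a included, and -0.11 for 10 mitochondrion-specific genes, Mrps30 included. Mrps36 was left out. Among Mrpl genes the median was -0.11 for 29 bacterial-family genes and -0.16 for 19 mitochondrion-specific genes. The range was -0.45 to 0.13 in the 29 and -0.52 to 0.09 in the 19.

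**Figure D2:**
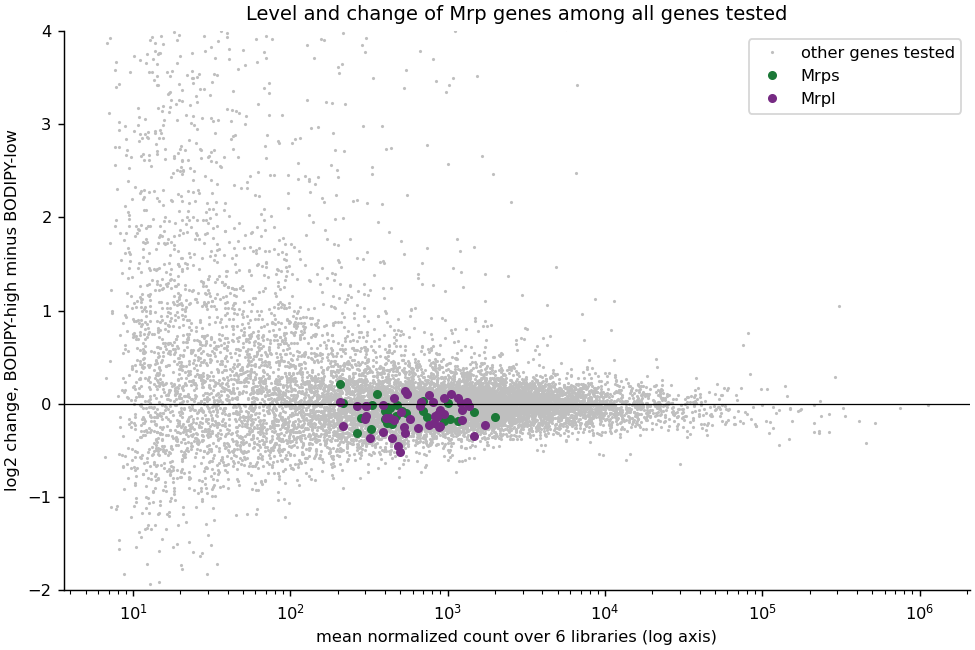
Log2 change (BODIPY-high minus BODIPY-low, y axis) against the mean normalized count over 6 libraries (log x axis) for Mrps genes (green), Mrpl genes (purple) and other genes tested (grey), some other genes lying outside the drawn y range. The members lie in the dense middle of the levels, between means of 205 and 1989, and near 0 on the y axis.

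The member of lowest p was Mrpl43, a mitochondrion-specific protein of the large subunit (ENSMUSG00000025208, chr19:45004829-45006442, minus strand). Mrpl43 had 1281, 1168 and 1464 normalized counts in BODIPY-high libraries 1, 2 and 3, against 1551, 1587 and 1824 in BODIPY-low libraries 1, 2 and 3. All BODIPY-high values lay below all BODIPY-low values, and the log2 change was -0.35 ± 0.13 (SE, limma adjusted p = 0.352). Its exons overlap those of Twnk (listed under its older symbol Peo1), which encodes the mitochondrial DNA helicase, on the opposite strand. Since the kits do not keep strand, reads from the shared stretch cannot be told apart. Peo1 had 753 ± 137 normalized counts in BODIPY-high libraries and 713 ± 68.0 in BODIPY-low libraries (SD, n = 3 each).

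Mrpl55, a mitochondrion-specific protein of the large subunit, had the most negative change of the 77. Mrpl55 had 351, 362 and 525 normalized counts in BODIPY-high libraries 1, 2 and 3, against 486, 597 and 678 in BODIPY-low libraries 1, 2 and 3. BODIPY-high library 3 exceeded BODIPY-low library 1, so the gates overlapped, and the log2 change was -0.52 ± 0.21 (SE, limma adjusted p = 0.43). Between libraries of the same number the log2 differences were -0.47, -0.72 and -0.37 in pairs 1, 2 and 3. The limma adjusted p with the block was 0.0890, still no call.

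Mrpl32 belongs to a bacterial family, and in mouse and yeast its precursor is matured by the m-AAA protease of the inner membrane before it joins the ribosome. Mrpl32 had 375, 418 and 429 normalized counts in BODIPY-high libraries 1, 2 and 3, against 463, 573 and 651 in BODIPY-low libraries 1, 2 and 3. The gates did not overlap, and the log2 change was -0.45 ± 0.18 (SE, limma adjusted p = 0.398). The SD was 28.1 in the BODIPY-high gate and 94.3 in the BODIPY-low gate.

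Mrpl17, also of a bacterial family, had 1757, 1534 and 1479 normalized counts in BODIPY-high libraries 1, 2 and 3, against 1839, 1818 and 1906 in BODIPY-low libraries 1, 2 and 3. Every BODIPY-high value was lower, the gap being smallest for library 1, and the log2 change was -0.23 ± 0.11 (SE, limma adjusted p = 0.539). Mrpl34 and Mrpl54 had changes of -0.37 each with standard errors of 0.26 (limma adjusted p = 0.728 and 0.743).

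At the other end of the large subunit, Mrpl27, whose bacterial relative reaches the peptidyl transferase centre, had the most positive change, 0.13 ± 0.19 (SE). Mrpl28 and Mrpl1 had 0.10 each and Mrpl49 0.09, and limma adjusted p for these 4 genes ran from 0.896 to 0.942. Mrpl1 had 595, 633 and 471 normalized counts in BODIPY-high libraries 1, 2 and 3, against 727, 454 and 436 in BODIPY-low libraries 1, 2 and 3. BODIPY-low library 1 was the highest of the 6 and the other BODIPY-low libraries the lowest.

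Among small-subunit genes, Mrps2 had the lowest p. Mrps2 had 1948, 1820 and 1900 normalized counts in BODIPY-high libraries 1, 2 and 3, against 2156, 2204 and 1908 in BODIPY-low libraries 1, 2 and 3. BODIPY-low library 3 lay within the range of the BODIPY-high libraries, and the log2 change was -0.14 ± 0.10 (SE, limma adjusted p = 0.745). Mrps28 had the most negative change of the subunit. Mrps28 had 201.2, 215 and 302 normalized counts in BODIPY-high libraries 1, 2 and 3, against 251, 304 and 327 in BODIPY-low libraries 1, 2 and 3. The lower value of each number was the BODIPY-high one, the gates overlapped, and the change was -0.31 ± 0.23 (SE, limma adjusted p = 0.762).

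Mrps6 had the most positive change of all 77. Mrps6 had 232, 197 and 233 normalized counts in BODIPY-high libraries 1, 2 and 3, against 170, 192 and 211 in BODIPY-low libraries 1, 2 and 3. The gates overlapped, and the change was 0.21 ± 0.22 (SE, limma adjusted p = 0.846). Exons of Mrps6 overlap those of the solute carrier gene Slc5a3 on the same strand. Mrps22 had a log2 change of 0.10, while Mrps7, whose relative in Escherichia coli starts assembly of the head of the small subunit, had -0.19 ± 0.15 and Mrps17 -0.18 ± 0.14 (SE). Mrps9 and Mrps35 had -0.21 and -0.20. Mrps36, no ribosomal subunit despite its name, had 0.01 ± 0.27, with 213 ± 13.1 normalized counts in BODIPY-high libraries and 219 ± 64.6 in BODIPY-low libraries (SD, n = 3 each).

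The 3 relatives of bacterial S18 occupy different places: Mrps18c takes the S18 site of the small subunit, Mrps18b lies elsewhere in the small subunit and Mrps18a lies in the large subunit. Mrps18a had 697, 624 and 793 normalized counts in BODIPY-high libraries 1, 2 and 3, against 580, 675 and 835 in BODIPY-low libraries 1, 2 and 3. Mrps18b had 776, 887 and 998 in BODIPY-high libraries 1, 2 and 3, against 938, 990 and 1024 in BODIPY-low libraries 1, 2 and 3. Mrps18c had 341, 251 and 294 in BODIPY-high libraries 1, 2 and 3, against 276, 414 and 389 in BODIPY-low libraries 1, 2 and 3. The gates overlapped for all 3 genes. The log2 changes were 0.02 ± 0.17 for Mrps18a, -0.16 ± 0.14 for Mrps18b and -0.27 ± 0.22 for Mrps18c (SE, limma adjusted p from 0.789 to 0.986).

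**Figure D3:**
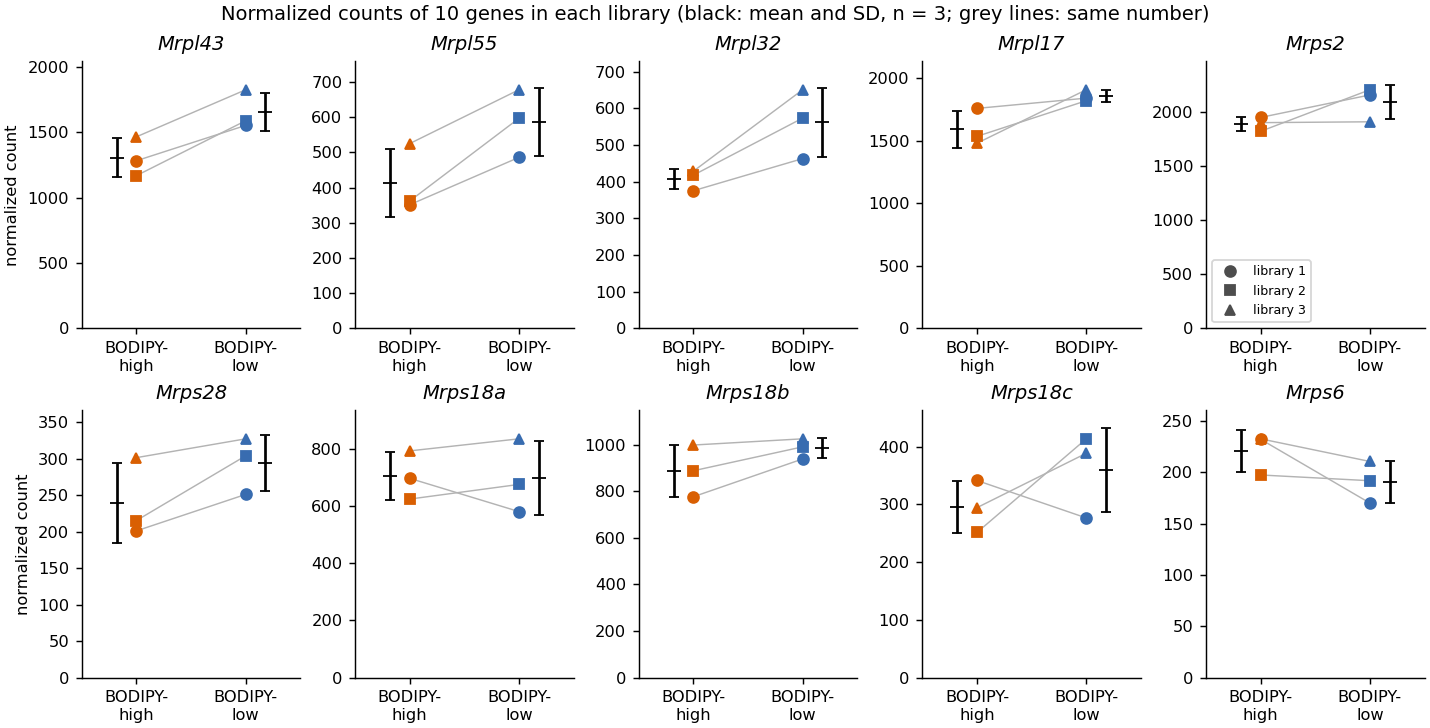
Normalized counts (y axis, from 0) of 10 genes in each BODIPY-high library (orange, left) and BODIPY-low library (blue, right), with symbols for library numbers, grey lines joining the same number and black bars for the mean and SD of 3 libraries. Mrpl43, Mrpl32 and Mrpl17 do not overlap between gates, whereas Mrps18a, Mrps18b, Mrps18c and Mrps6 do.

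In 10 members (12.99%) every BODIPY-high value was below every BODIPY-low value, and in 0 members every one was above. Among all genes tested the shares were 5.95% and 10.4%. Of the 10, 9 were Mrpl genes: Mrpl32, Mrpl43, Mrpl46, Mrpl51, Mrpl16, Mrpl17, Mrpl44, Mrpl19 and Mrpl10. The other was Mrps30, which lies in the large subunit despite its name. These 10 were listed after their values were seen. Their log2 changes ran from -0.45 (Mrpl32) to -0.07 (Mrpl10), and the call of no overlap at Mrpl10 rests on values of 1203 to 1221 in BODIPY-high libraries and 1242 to 1286 in BODIPY-low libraries.

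By numbered pair, the median member was lower in the BODIPY-high library in every pair, by unequal amounts. In pair 1 the median log2 difference was -0.06, with 45 of 77 members below 0 (58.4%, against 49.6% of all genes tested). In pair 2 it was -0.17, with 65 below 0 (84.4%, against 48.7%). In pair 3 it was -0.07, with 59 below 0 (76.6%, against 50.6%). The medians over all genes tested were 0.0015, 0.012 and -0.0047 in pairs 1, 2 and 3.

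Both subunits had medians below 0 in each pair, that of the Mrps genes lying close to 0 in pair 1. Mrps genes had medians of -0.0042, -0.20 and -0.07 in pairs 1, 2 and 3, and Mrpl genes -0.07, -0.14 and -0.10. In 34 members (44.2%) all 3 pairs were lower, against 19% of all genes tested. In 3 members (Mrpl37, Mrpl27 and Mrps6) all 3 were higher, against 20.7% of all genes tested, Mrpl37 being named after its values were seen.

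**Figure D4:**
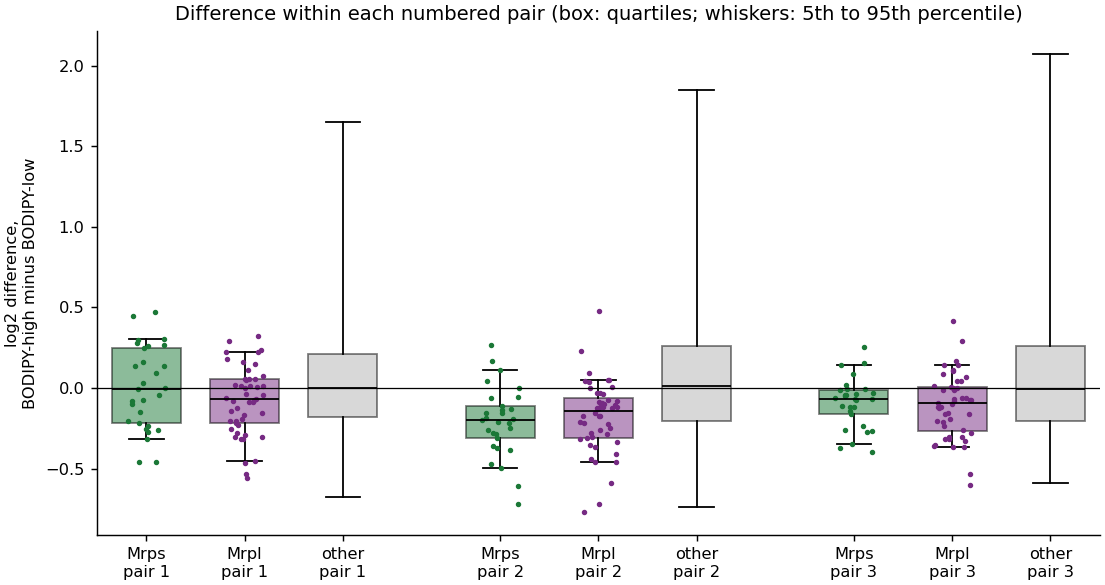
Log2 difference (BODIPY-high minus BODIPY-low library of the same number, y axis) in pairs 1, 2 and 3 for Mrps genes (green), Mrpl genes (purple) and other genes tested (grey), with boxes for quartiles, whiskers for the 5th to 95th percentile and a point per member. The member boxes sit lowest in pair 2, with medians of -0.20 and -0.14, while the medians of the other genes lie close to 0.

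Libraries of 1 gate differed from each other in these genes by more than the median change between gates. The median deviation of the 77 genes from their own mean was -0.15, -0.10 and 0.08 (log2) in BODIPY-high libraries 1, 2 and 3, and -0.09, 0.08 and 0.19 in BODIPY-low libraries 1, 2 and 3. BODIPY-low library 3 was the highest of the 6 libraries for 45 of 77 members, and BODIPY-high library 1 the lowest for 27. Together the members made up 0.127, 0.129 and 0.150% of normalized counts in BODIPY-high libraries 1, 2 and 3, against 0.131, 0.146 and 0.155% in BODIPY-low libraries 1, 2 and 3. BODIPY-high library 3 exceeded BODIPY-low libraries 1 and 2 in this share. The median log2 change depended on single libraries: it was -0.07, -0.06 and -0.18 without BODIPY-high library 1, 2 and 3, and -0.19, -0.10 and -0.06 without BODIPY-low library 1, 2 and 3. Without any 1 library, 0 members were called (limma, lowest adjusted p = 0.287), and 0 to 6 members were lower and 0 higher at an unadjusted p under 0.05.

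The members encode short proteins, with a median coding length of 576 bp (longest annotated coding transcript), against 1395 bp for protein-coding genes tested. Other genes of short coding length were also slightly lower in the BODIPY-high gate. Below 500 bp the median log2 change was -0.10 for 27 members and -0.07 for 935 other genes, of which 65.1% were below 0. From 500 to under 1000 bp it was -0.14 for 39 members and -0.04 for 2683 others. From 1000 to under 2000 bp it was -0.03 for 11 members and 0.01 for 4563 others, and 3490 other genes of 2000 bp or more had 0.05.

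By library, the median deviation of other short genes had the sign of that of the members. Other genes under 1000 bp had -0.06, -0.01 and 0.03 in BODIPY-high libraries 1, 2 and 3, and -0.05, 0.04 and 0.08 in BODIPY-low libraries 1, 2 and 3. Other genes of 2000 bp or more had 0.07, 0.0032 and 0.05 in BODIPY-high libraries 1, 2 and 3, and 0.03, -0.07 and -0.04 in BODIPY-low libraries 1, 2 and 3. In BODIPY-high library 3 the long genes thus lay above the short ones, and all genes tested had 0.02. The part of coding length in the values of the members was not tested.

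**Figure D5:**
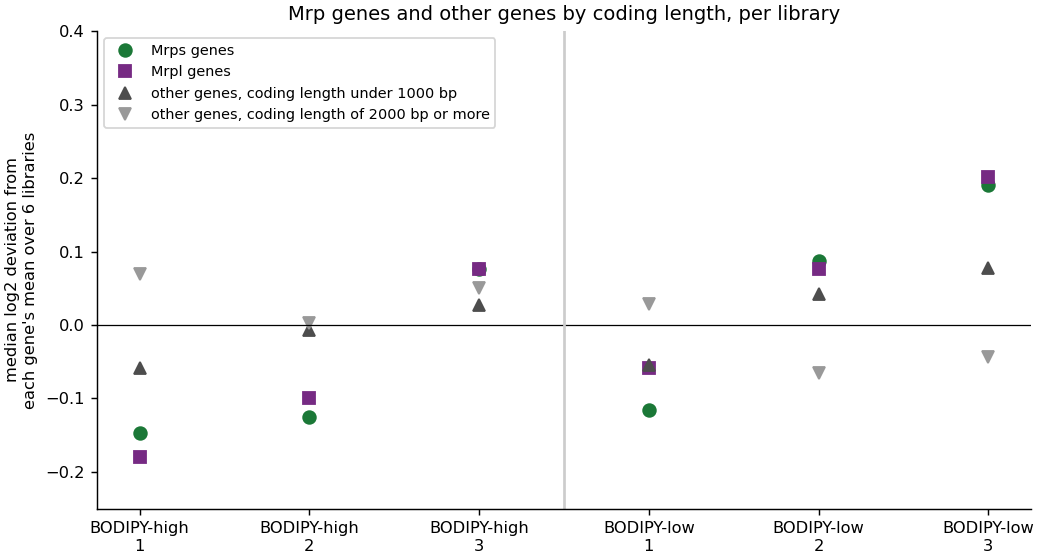
Median log2 deviation from each gene's own mean over 6 libraries (y axis) in the 3 BODIPY-high libraries (left) and the 3 BODIPY-low libraries (right), for Mrps genes, Mrpl genes, other genes with a coding length under 1000 bp and other genes of 2000 bp or more. Mrpl genes range from -0.18 in BODIPY-high library 1 to 0.20 in BODIPY-low library 3, and the short other genes have the same sign in each library with a smaller spread.

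Levels among members were compared per kilobase of merged exons, as means over the 6 libraries. Mrpl43 had the highest level of the 77, 973 normalized counts per kilobase, followed by Mrpl36, a small protein of a bacterial family, with 770. Mrps2 (681) and Mrps15 (597) led the Mrps genes. Mrpl33 (41.1), Mrpl47 (48.7), Mrps35 (47.7) and Mrps25 (50.5) were lowest. These lengths count every annotated exon, rare transcripts included, and the order shifts when the coding length is used. Mrpl17 then took rank 1, Mrpl43 rank 2 and Mrpl36 rank 3, and Mrpl33 took rank 41 in place of 77. The log2 changes between gates of Mrpl36, Mrps15, Mrpl33, Mrpl47 and Mrps25 ran from -0.24 to 0.00 (limma adjusted p from 0.818 to 0.995).

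The 77 genes lay on 17 chromosomes, with 10 on chromosome 11 and 8 on chromosome 17. In 25 members (32.5%) a protein-coding gene on the opposite strand started within 500 bp of the member's start, against 13.8% of 11691 other coding genes tested. Mrpl46 and Mrps11 form such a pair with each other, with log2 changes of -0.26 and -0.16. Their exons overlap on opposite strands, so reads from the shared stretch cannot be told apart. Mrps12, whose protein lies at the decoding site, starts beside Sars2, the mitochondrial seryl-tRNA synthetase gene, and the changes were -0.04 and 0.45. Mrpl36 starts beside Ndufs6, a complex I subunit gene, with -0.07 and -0.06, and the exons of this pair overlap on opposite strands as well. Of 24 partner entries tested, 16 had a change below 0 and 0 were called. Exons of 32 members overlap those of another annotated gene. The 45 members without such overlap had a median change of -0.10, with 33 below 0.

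The other genes of mitochondrial translation likewise held few calls. The 5 mitoribosome subunits without an Mrp name (Dap3, Ptcd3, Chchd1, Aurkaip1 and Gadd45gip1) had a median log2 change of -0.0078 and 0 calls in limma, edgeR and DESeq2, with 0 at an unadjusted p under 0.05. Chchd1, the gene of lowest p, had -0.39 ± 0.29 (SE, limma adjusted p = 0.76). Translation factors (14 tested, median -0.04) and assembly factors (24 tested, median -0.05) held 0 calls in limma, edgeR and DESeq2, and 0 genes at an unadjusted p under 0.05 in limma. The gene of lowest p was Gfm1, an elongation factor, with 0.18 ± 0.12 in the first list, and Oxa1l, which inserts newly made proteins into the inner membrane, with -0.22 ± 0.10 in the second (SE, limma adjusted p = 0.706 and 0.522).

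Genes acting before and after translation gave the following. Of 20 mitochondrial aminoacyl-tRNA synthetase genes, which charge the transfer RNAs, 0 were called (median 0.02). Lars2, the leucyl enzyme, had 5025, 5417 and 4151 normalized counts in BODIPY-high libraries 1, 2 and 3, against 7424, 7207 and 4882 in BODIPY-low libraries 1, 2 and 3. It was lower in each pair, with a log2 change of -0.40 ± 0.17 (SE, limma adjusted p = 0.458), which moved past the threshold once library numbers entered as a block (limma adjusted p = 0.0239). Of 18 genes of mitochondrial DNA upkeep and transcription, 0 were called (median -0.05), and the elongation factor gene Tefm had -0.31 ± 0.14 (SE, limma adjusted p = 0.48). Each of these lists held 0 higher and 1 lower gene at an unadjusted p under 0.05, and edgeR and DESeq2 without the block called 0 in each. With the block, edgeR and DESeq2 also called Lars2 lower (adjusted p = 0.0240 and 0.000846). Of 15 protein quality control genes, 0 were called by limma, edgeR or DESeq2 (median 0.03), with 2 higher and 0 lower at an unadjusted p under 0.05. The protease gene Lonp1 had 1405 ± 116 normalized counts in BODIPY-high libraries and 1083 ± 42.6 in BODIPY-low libraries (SD, n = 3 each), a log2 change of 0.37 ± 0.12 (SE, limma adjusted p = 0.223).

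Among 13 regulators of mitochondrial biogenesis, 1 was called higher and 0 lower, against 2.03% and 0.0235% of all genes tested. The median change was -0.08. The gene that rose was the coactivator gene Ppargc1a, with 102 reads over the BODIPY-high libraries and 1 read over the BODIPY-low libraries (limma adjusted p = 0.0176). Some marker lists of other cells also held genes called higher. Choroid plexus markers summed to 38968 to 50856 normalized counts in BODIPY-high libraries against 303 to 2227 in BODIPY-low libraries. Called higher were 7 of 7 choroid plexus, 10 of 12 border-associated macrophage, 4 of 8 astrocyte, 2 of 7 oligodendrocyte and 1 of 7 monocyte genes. None of 3 neuron, 8 endothelial or 9 neutrophil genes was called, and all 11 microglia markers had log2 changes below 0. The part of any of these cells in the Ppargc1a value was not tested. At these counts Ppargc1a did not meet the filter once any 1 BODIPY-high library was left out. Ppargc1a had 41.0, 32.9 and 25.7 normalized counts in BODIPY-high libraries 1, 2 and 3. In BODIPY-low libraries 1, 2 and 3 it had 0, 1.03 and 0, so it met the filter through the BODIPY-high libraries alone. Without a BODIPY-low library its limma adjusted p ran from 0.0244 to 0.0453. These values do not check the call, since the library removed was always one near 0. With the mean filter of 50 normalized counts, Ppargc1a was not tested.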

How the data were processed

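RNA sequencing libraries of sorted BODIPY-high and BODIPY-low hippocampal microglia (3 each) were analysed. Per the labels' protocols, libraries were made with the SmartSeq v4 and Nextera XT kits. Per the series' design text, STAR 2.5.3a served the authors for alignment to mm10 and for gene counts, and DESeq2 for their own comparison. Besides mm10, the submitters' processing notes name mm9. Which annotation and strand setting were used is not given in the sources used here. As their table, the authors deposited a normalized signal per gene, a gene count divided by 1 size factor per library. In each library 100% of values were whole multiples of 1 step within 0.05 of a read, so reads were recovered; in BODIPY-high libraries 1 and 2 the step lies close to 1. The limit behind a 0 is 3 reads, worth 2.76 to 3.29 normalized counts. PCR copies are not independent molecules, so counts cover counting error only.

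Genes with at least 10 normalized counts in at least 3 libraries were tested with limma 3.58.1 (two-sided, with a mean-variance trend), whose model held the gate alone and whose values were log2(normalized count + 1); p was adjusted (Benjamini-Hochberg) over 12767 genes. Fold changes on this scale understate changes of low genes. edgeR 4.0.16 and DESeq2 1.42.0 on recovered reads, a replicate block, other scalings, filters and pseudocounts and each library left out were alternatives. Libraries of the same number deviated together from their gate means (Pearson r = 0.354, 0.244 and 0.363 across genes in pairs 1, 2 and 3), which is taken as pairing. The labels do not say whether samples of a gate came from separate pools of animals, so the p-values speak only of the spread among the libraries sequenced, which may be technical. The test was also run on simulated counts. These held no shared deviation of libraries of the same number, so the run does not cover the pairing.

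Members and lists were chosen with earlier results of these data known. Named members were any called gene and, per subunit, the 4 most positive and 4 most negative changes, the 4 lowest p, the 2 highest and 2 lowest levels per kilobase, and Mrps18a, Mrps18b and Mrps18c. Of each other pathway list, called genes and the gene of lowest p were named; cell type markers, and genes that overlap or neighbour a member, were named as examples outside this rule. Coordinates and lengths come from GENCODE M21, where all 77 symbols matched. 1 gene of the marker lists is not reported here.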

Additional observations from a re-analysis of the deposited data

How the results depend on the processing

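Under all 17 alternatives, 0 members were called in either direction, and the lowest adjusted p was 0.0681 (Mrpl43, DESeq2 with the replicate block, an alternative chosen after seeing the data). The replicate block, limma and edgeR, changed no call of a member (lowest adjusted p = 0.0844 and 0.0778), while calls over all genes tested went to 617 in limma, against 262 without it. Calls over all genes were 223 with edgeR and 496 with DESeq2, 104 higher and 1 lower with a mean filter of 50, and 11 to 277 higher with 1 library left out. The median log2 change stayed below 0 throughout, from -0.19 to -0.06 for all members with 1 library left out. For Mrps genes it was -0.20 to -0.07 and for Mrpl genes -0.19 to -0.05, and the summed ratios were 0.885 to 0.954 and 0.887 to 0.953.

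Over 15 of these alternatives (edgeR and DESeq2 with the replicate block are not in this tally), 23 of 405 values of the 27 named genes changed sign, in 9 genes without a call. With edgeR, Mrps15 had -0.0083 and Mrps36 -0.052, and with DESeq2 Mrps36 had -0.042. With TMM scaling, Mrps15 had -0.0075 and Mrps36 -0.0040. Scaled to the library total, Mrpl33 had 0.0021 and Mrps25 0.014. With 1 library left out, the ranges that crossed 0 were -0.034 to 0.033 for Mrps15, -0.26 to 0.18 for Mrps36, -0.19 to 0.15 for Mrpl33, -0.13 to 0.11 for Mrps25, -0.020 to 0.17 for Mrpl49, -0.0053 to 0.27 for Mrpl27, -0.041 to 0.21 for Mrpl28, -0.099 to 0.16 for Mrps18a and -0.032 to 0.34 for Mrpl1. The cause was not tested. At this depth and replicate number, changes beyond 2-fold lay outside the 95% interval of each member in the limma fit without the block.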
